A study of Mus musculus with 107 samples.

Results

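Eggs of mos -/- mice named M1 were compared with strontium-activated wildtype eggs that the deposited egg table lists with the same growth number, 1. The comparison holds 24 of the 107 eggs of the study: 16 M1 eggs, 5 from plate 1 and 11 from plate 2, and 8 activated eggs from plate 4, all of batch 2. Members were taken by genotype, batch, treatment and growth number, and eggs under 10000 counts were left out, which removed 2 of 18 M1 eggs with 44 and 1526 counts. Both groups came from C57BL/6J females 2 to 3 months old that had received 5 IU of pregnant mare serum gonadotropin 48 h before collection, so both were stimulated. Oocytes were isolated in 2.5 µM milrinone, an inhibitor of meiotic resumption, and matured in culture without it. Wildtype eggs to be activated spent 2 h in calcium-free medium with 10 mM strontium chloride, starting 15 to 16 h after germinal vesicle breakdown. All eggs were collected 38 to 40 h after breakdown. The labels define neither M1 nor the growth number, do not say which part of Mos is mutated, and tie no egg to an animal.

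MOS is the oocyte kinase that switches on the MEK and ERK kinases during meiotic maturation, and this cascade holds the egg at the second metaphase as part of cytostatic factor. An egg without MOS can leave meiosis without sperm. Strontium makes a wildtype egg release calcium in repeated waves, as sperm do, so that it completes meiosis and starts development. A growing oocyte stores messenger RNAs that are translated or destroyed on a schedule after meiosis resumes, and the new genome is then switched on, in the mouse chiefly at the 2-cell stage, with DUX, the ZSCAN4 proteins and ZFP352 among its early products.

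The 16 M1 eggs held 61689 to 1095400 counts (median 679510) and the 8 activated eggs 179003 to 1019674 (median 819604). Thinned to 60000 counts, the median number of genes detected was 6418.5 in M1 and 6758 in activated eggs. M1 eggs 11 and 21 stood apart, with 4646 and 4021 genes at that depth and 1.17% and 0.433% of counts from mitochondrial genes, against a group median of 0.0809%, and egg 11 gave 40% of the counts of M1 plate 1. M1 eggs 13, 14 and 22 stood apart by high Zp3. Since no label links eggs to animals, the test took the summed counts of each plate within a group and growth number as its samples, and a gene was called at an adjusted p below 0.05 in edgeR's quasi-likelihood test, in which the only spread is that between plates 1 and 2 of the mutant groups. That spread may be technical, and plate 4 and strontium cannot be told apart. Levels per egg are CPM, counts scaled to the same total in every egg, and since values are relative, a difference need not be one in amount per egg.

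Mos reads do not check the labels, since the mutated part is not given. In M1 eggs 137 Mos counts were found in 10 of 16 eggs, 13.3 CPM of the group's total (Poisson 95% interval 11.2 to 15.7). Activated eggs held 26 counts in 5 of 8 eggs, 4.23 CPM (2.77 to 6.20). The groups overlapped, since M1 eggs ran from 0 to 135.2 CPM and activated eggs from 0 to 14.2, and the difference did not pass the test (log2 fold 1.44 ± 0.89 SE, edgeR adjusted p = 0.599). M1 eggs 21, 14 and 22 were the highest, at 135.2, 90.1 and 61.0 CPM, and weighed most in the group's total. The egg medians went the other way, at 1.38 CPM in M1 and 3.78 in activated eggs. With 1 egg left out in turn the log2 fold ran from 0.31 to 2.11. Mapk3, which encodes ERK1, had a median of 202 CPM in M1 and 305 in activated eggs (log2 fold -0.36 ± 0.38, edgeR adjusted p = 0.781). Of the 14 tested genes of the MOS and MAP kinase cascade, none passed in either direction.

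Across 12915 genes, 5 passed the test (0.0387%), 4 of them higher in M1 (0.031%) and 1 lower (0.00774%), and 1372 (10.6%) had an unadjusted p below 0.05, 962 of them higher (7.45%) and 410 lower (3.17%). The 4 higher genes were Bub1b, Smc4, Dnajc3 and Tsc22d1, and the lower one was Chit1, all at an edgeR adjusted p of 0.0495. Calls at this margin were fragile: leaving out any one of 11 of the 24 eggs (M1 eggs 10, 12, 13, 14, 19, 20 and 22, activated eggs 1, 2, 5 and 6) gave 0 calls, and 0 to 13 were made over the 24 eggs left out. The signs of the 5 folds were the same in all 48 alternative fits, though Chit1 could only be lower, as described below.

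The number of calls also depended on mutant eggs outside the comparison, because the spread came from all mutant groups. M3 egg 8, from plate 1 of the mutant group with growth number 3, stood apart with 8367 genes detected at 60000 counts, against at most 6889 in any other M3 egg, and 2.69% of counts from mitochondrial genes. Without it 91 genes were called, 48 higher and 43 lower, including all 5 above. With a term for plate 1 against plate 2, which the mutant groups share, 315 were called, 231 higher and 84 lower, again with all 5. Statements below that a gene or list member did not pass refer to the fit with 5 calls.

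Bub1b encodes BUBR1, a kinase-related protein of the spindle checkpoint that restrains the anaphase promoting complex. Its level in M1 eggs had a lowest value of 16.2, a median of 568 and a highest value of 2642 CPM. In activated eggs these were 27.2, 52.1 and 83.0 CPM. All but 2 M1 eggs, 14 of 16, lay above every activated egg, and M1 egg 19 lay below every one. In the plate sums Bub1b stood at 614 and 552 CPM in M1 and 53.1 in activated eggs, a log2 fold of 3.46 ± 0.49 (10.98-fold, SE from 9 sums, edgeR adjusted p = 0.0495).

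Smc4 encodes a core subunit of condensin, which compacts chromosomes. M1 eggs ran from 141.3 to 849 CPM with a median of 295, and activated eggs from 19.3 to 107 with a median of 47.3. Every M1 egg lay above every activated egg. The log2 fold was 3.11 ± 0.48 (8.64-fold, edgeR adjusted p = 0.0495), with plate sums of 542 and 316 CPM against 49.5. M1 egg 11, whose library stood apart, had the highest value, and without it Smc4 still passed (edgeR adjusted p = 0.0493) among 11 genes called.

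Dnajc3 encodes a co-chaperone of the endoplasmic reticulum. Its values were 217, 509 and 1047 CPM in M1 eggs (lowest, median and highest) and 22.7, 76.9 and 131.8 in activated eggs, with no overlap (log2 fold 2.98 ± 0.45, 7.88-fold, edgeR adjusted p = 0.0495). Tsc22d1, a leucine zipper gene of the TSC22 family, was the most abundant of the 4. M1 eggs held 833, 1703 and 2268 CPM and activated eggs 179, 284 and 525, again without overlap (log2 fold 2.59 ± 0.36, 6.01-fold, edgeR adjusted p = 0.0495). In wildtype eggs of the same batch, not labelled as activated, median levels were 92.0 CPM for Bub1b, 399 for Smc4, 580 for Dnajc3 and 1198 for Tsc22d1, all above the activated medians.

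**Figure D1:**
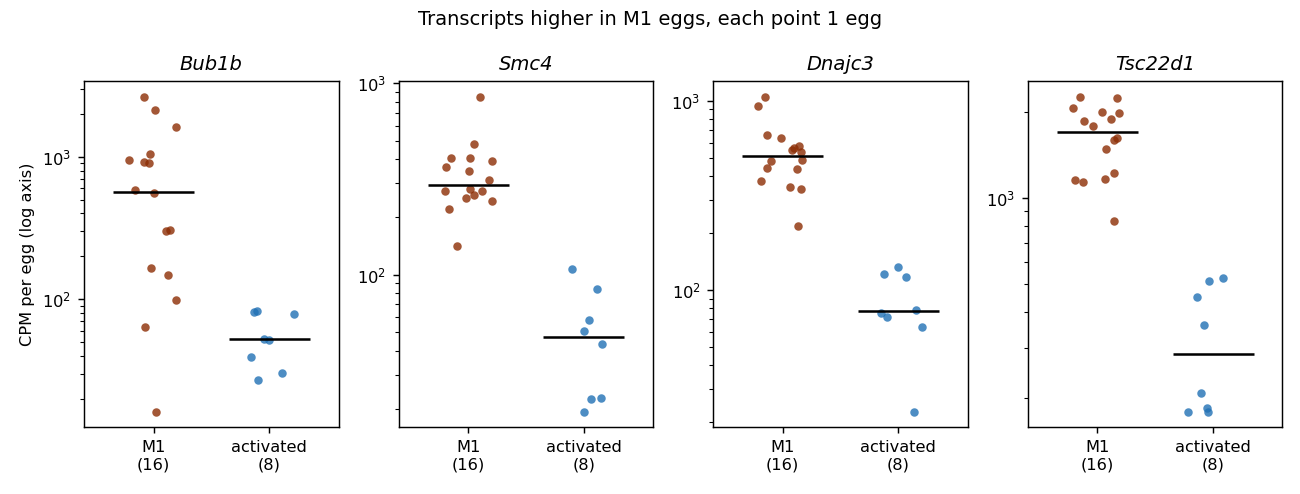
Level of each gene in each egg, in CPM on a log axis, for 16 M1 and 8 activated eggs. Points are eggs and black lines are medians; for Smc4, Dnajc3 and Tsc22d1 every M1 egg lies above every activated egg, and for Bub1b 14 of 16 do.

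Chit1, a chitinase gene named here because it was the only lower call, was nearly absent from M1 eggs, with 2 counts in 2 of 16. Activated eggs held 174 counts in 6 of 8, of which egg 6 reached 116 CPM and egg 5 78.3, and no other activated egg exceeded 3.9. The ratio of activated to M1 levels was 146 (95% counting interval 39.8 to 1216). The fitted log2 fold was -7.04 ± 1.09 (edgeR adjusted p = 0.0495), and without activated egg 5 or egg 6 no gene was called. In the sums Chit1 stood at 26.7 CPM in activated eggs of growth number 1 and 37.7 of growth number 2. No mutant or wildtype sum exceeded 0.693 CPM. Chit1 could thus be tested only through activated sums and only as lower, so the call is not support for its direction.

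Levels that did not overlap between the 16 M1 and the 8 activated eggs were rare. Of 5824 genes with a mean of at least 20 CPM, 18 were higher in every M1 egg (0.309%) and 6 were lower in every M1 egg (0.103%). Of the 6, 5 had an M1 median of 0 CPM and reached that mean through activated eggs, so they could enter only as lower, and at a minimum of 50 CPM 1 gene was left. These genes were listed after their values were seen, and eggs of 1 plate are not independent. The count depends on the eggs: it was 38 higher and 6 lower without M1 eggs 11 and 21, and 8 and 0 once all eggs were thinned to 61689 counts.

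Besides the 3 called genes the 18 included the following. Creld2, a stress-responsive gene of the endoplasmic reticulum, ran from 337 to 2248 CPM in M1 eggs, and no activated egg exceeded 223. Tmed9, a cargo receptor of transport vesicles, ran from 48.5 to 165 against 13.7 to 40.4 CPM. Igf2bp2, whose protein binds and stabilises messenger RNAs, had medians of 589 and 123.3 CPM in M1 and activated eggs. Stau1, which binds double-stranded RNA, had 908 and 337, and Cnbp, a zinc finger protein that binds nucleic acids, 486 and 162. Carhsp1 had 460 and 136, and Zc3h13, part of the complex that methylates adenosines in messenger RNA, had 125.1 and 39.01. Astl encodes ovastacin, the cortical granule protease that cuts the zona pellucida after fertilisation, and its lowest M1 egg, at 46.8 CPM, lay just above the highest activated egg, at 42.2. The other genes were Abhd16a, Laptm4b, Fbxl6, Taf8, Tollip, Cd164l2 and Rspo2. The log2 folds of the 15 that were not called ran from 1.31 ± 0.38 (Laptm4b, edgeR adjusted p = 0.212) to 3.0 ± 0.64 (Fbxl6, edgeR adjusted p = 0.109).

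The 6 genes lower in every M1 egg were Zfp352, Usp17lb, Usp17lc, Pramel16, Prps1 and Elf2. Elf2, an ETS-family transcription factor, was present in both groups, at 0, 44.3 and 92.6 CPM in M1 eggs and 97.5, 129 and 174 in activated eggs (log2 fold -1.18 ± 0.41, edgeR adjusted p = 0.314). Prps1, an enzyme that makes the ribose phosphate used for nucleotides, had 23 counts over 7 M1 eggs and 520 over 8 activated eggs, a ratio of 38.0 (95% counting interval 25.03 to 60.4). The other four were close to or at 0 in M1 eggs, and 3 of these belong to the list of genome activation genes.

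Among the 25 lists tested, that one had the highest share of members at least 2-fold apart. Of its 30 tested members, 25 were at least 2-fold lower in both M1 plate sums than in the activated sum, against 10.6% of all tested genes, and none was at least 2-fold higher, against 7.6%. The median log2 fold was -6.37, and -4.75 with the 12 members that had no count in M1 set at the floor of 3 counts over the group, against 0 over all genes. Those 12 could be tested only through other groups and could only be lower. Members with few M1 counts were in nearly the same position, such as Usp17la (1), Hmox1 (1), Zscan4d (6), Usp17lc (7) and Duxf3 (8). The count thus describes the list and is not support for its direction. None passed the test after adjustment, and 15 had an unadjusted p below 0.05.

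The absence of calls in this list moved with M3 egg 8. That egg held 1520 CPM of Usp17la, 551 of Zscan4d, 347 of Zfp352 and 210.2 of Duxf3, while no other M3 egg exceeded 17.52 CPM of any of these 4. In it 27 of the 33 listed genes had reads, and 14 stood above every activated egg. Without it 10 of the 30 passed as lower in M1, namely Duxf3, Zscan4c, Zscan4d, Zscan4f, Zfp352, Usp17la, Usp17lb, Usp17lc, Usp17ld and Tmem92 (edgeR adjusted p from 0.000679 for Zfp352 to 0.0406 for Usp17ld). With the plate term 10 passed and with only the M1 and activated sums 12. Over all genes 91 were called without M3 egg 8 and 315 with the plate term. With only the M1 and activated sums, 60 were called as higher and 61 as lower. The members called in these fits held 0 to 13 counts over the 16 M1 eggs, so they could hardly be other than lower. Their calls and adjusted p thus are not support for their direction. The reads of M3 egg 8 show that transcripts of this list were also present in 1 egg labelled mos -/-. Within the comparison, activated egg 6 was the highest egg for several members (Zfp352, Usp17la, Usp17lb and Zscan4c among them). Without activated egg 6, 24 of 30 were at least 2-fold lower, the median was -5.29 and 9 had an unadjusted p below 0.05. Reads of the Zscan4, Usp17l and Dux copies may be shared or split between near-identical genes, so single members are uncertain, and which members were listed was decided with results of these data known.

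Several members of the list, Usp17lb and Duxf3 among them, were at or near 0 in M1 eggs and present in all 8 activated eggs. The regions before and around the start sites of 3 such members are shown as examples. They are RefSeq promoters of GRCm38.p6, 300 bases each from 250 before the start, on the gene's strand: Zscan4d at chr7:11166099-11166398 (minus), Usp17lc at chr7:103416446-103416745 (plus) and Zfp352 at chr4:90218570-90218869 (plus). Capitals mark TATAAA, the TATA box core, and GGATTA or its reverse complement TAATCC, a core bound by homeodomain proteins of the OTX and OBOX kind.
Zscan4d: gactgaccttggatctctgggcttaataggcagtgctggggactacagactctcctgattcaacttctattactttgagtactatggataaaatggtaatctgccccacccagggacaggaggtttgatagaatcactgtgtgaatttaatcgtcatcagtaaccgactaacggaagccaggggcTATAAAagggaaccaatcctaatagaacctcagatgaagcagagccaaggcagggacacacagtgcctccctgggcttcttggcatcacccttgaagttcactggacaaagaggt
Usp17lc: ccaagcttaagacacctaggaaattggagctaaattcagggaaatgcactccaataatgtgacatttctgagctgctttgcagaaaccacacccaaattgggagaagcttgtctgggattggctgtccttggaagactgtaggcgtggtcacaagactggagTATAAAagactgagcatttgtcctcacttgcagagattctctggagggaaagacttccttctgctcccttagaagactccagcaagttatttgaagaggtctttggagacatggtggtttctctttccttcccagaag
Zfp352: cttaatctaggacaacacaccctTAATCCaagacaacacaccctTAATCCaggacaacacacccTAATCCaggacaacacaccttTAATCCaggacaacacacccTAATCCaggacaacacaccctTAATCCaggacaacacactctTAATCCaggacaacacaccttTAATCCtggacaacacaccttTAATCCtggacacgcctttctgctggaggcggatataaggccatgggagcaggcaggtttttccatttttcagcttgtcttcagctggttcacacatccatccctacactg
The first 2 hold TATAAA once each and the third holds TAATCC 9 times in a short repeat. The window of Pramel16, outside the list but with the same pattern in eggs, held neither motif. Searched on both strands, TATAAA was in 8 of the 16 promoters available for the lower members of the list (50%) in 10.7% of 1008 promoters of all genes at least 2-fold lower, and in 14.2% of all 27025 promoters. Of the 8, 4 were Zscan4 and 3 Usp17l copies, which share sequence. GGATTA was in 3 of 16 (18.8%) and in 7.16% of all. The core motif bound by DUX was in none of the 16 and in 0.0407% of all. A match describes letters in these windows only.

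Duxf3, a copy of the Dux gene, which encodes an early activator of 2-cell genes, was seen in 2 of 16 M1 eggs (8 counts) and in 8 of 8 activated eggs (213 counts). Activated eggs held 11.2, 35.2 and 56.6 CPM (lowest, median and highest), and no M1 egg exceeded 5.6. The ratio was 44.7 (95% counting interval 22.3 to 105). Its adjusted p was 0.325 in the edgeR test, with a log2 fold of -5.56 ± 1.84.

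Zscan4d, one of the zinc finger genes transiently switched on at the 2-cell stage, had 6 counts in 2 M1 eggs and 542 in 8 activated eggs, a ratio of 152 (95% counting interval 69.3 to 415). Activated eggs divided among themselves: eggs 1, 2, 3, 5 and 6 held 58.8 to 253 CPM and eggs 4, 9 and 12 held 2.8 to 10.0. The same 3 eggs were at 0 to 1.4 CPM for Zscan4c, which had no count in M1 eggs and 262 in activated eggs, at least 147-fold higher. Zscan4f likewise had 0 and 162 counts. The log2 fold of Zscan4d was -7.23 ± 1.31 (edgeR adjusted p = 0.0977).

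Zfp352, another zinc finger gene of the 2-cell stage, had no count in 16 M1 eggs and 621 counts in 8 of 8 activated eggs, at least 348-fold higher with a floor of 3 counts over the M1 group. Activated eggs held 2.51, 34.1 and 460 CPM. Eggs 6, 5 and 1 were highest, and eggs 4 and 12 lowest. The Usp17l genes encode deubiquitinases. Usp17lc had 7 counts in M1 and 342 in activated eggs (ratio 82.1, 95% counting interval 39.4 to 206), and Usp17lb had 0 and 341. Usp17la had 1 and 416, of which egg 6 held 368 CPM against at most 53 in any other activated egg.

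**Figure D2:**
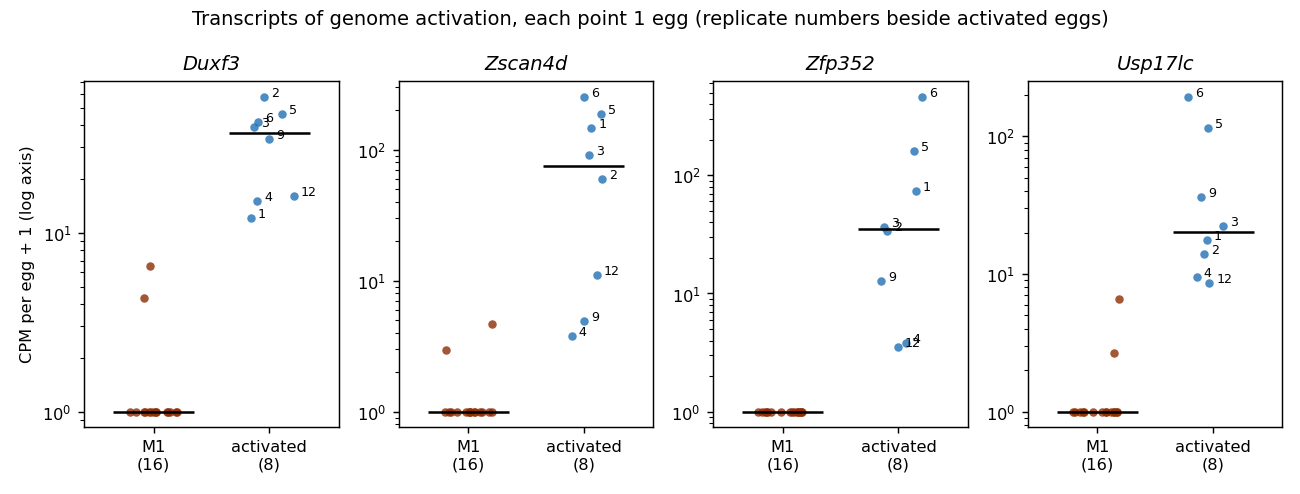
Level of 4 genome activation genes in each egg, in CPM plus 1 on a log axis, with replicate numbers beside the 8 activated eggs; black lines are medians. Nearly all of the 16 M1 eggs lie at 0 CPM, while activated eggs 5 and 6 are high and eggs 4 and 12 low for Zscan4d, Zfp352 and Usp17lc.

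Klf17, Sp110, Eif1ax and Obox5 had many counts in both groups. Klf17, an abundant oocyte transcription factor, had medians of 1131 and 1230 CPM in M1 and activated eggs, and Sp110 had 1046 and 499 counts in all. The summed level of the list overlapped, at 793 to 5181 CPM in M1 eggs and 1762 to 4911 in activated eggs. M1 egg 21, whose library stood apart, had the highest sum of all 24.

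None of the genes listed as zona, maternal effect or stored transcripts passed after adjustment. Of 20 tested zona pellucida and secreted or surface egg genes, 8 were at least 2-fold higher in both plate sums, against 7.6% of all genes, and none was lower. The median log2 fold was 0.96, and 0.40 without M1 eggs 11 and 21. They were Zp1, Zp2, Zp3, Astl, Gdf9, Fgf8, Oosp3 and Plat. Zp3, which encodes a zona protein, ran from 0 to 5239 CPM in M1 eggs with a median of 259. Activated eggs ran from 27.8 to 92.6 CPM with a median of 69.4. Of the M1 eggs, 13 of 16 lay above every activated egg, and eggs 14, 22 and 13 were far above the rest at 5239, 4348 and 1906 CPM. The log2 fold was 2.89 ± 0.50 (edgeR adjusted p = 0.0606). Zp1, which crosslinks zona filaments, had medians of 509 and 147 CPM, and Zp2, the protein cut by ovastacin, had 335 and 265. Gdf9, a growth factor by which the oocyte acts on its follicle cells, had 525, 1799 and 12611 CPM in M1 eggs and 377, 573 and 898 in activated eggs. Its partner Bmp15 overlapped fully, with medians of 1843 and 1606 CPM (log2 fold 0.24 ± 0.34, and -0.08 without M1 eggs 11 and 21).

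H1f8, the oocyte form of linker histone H1, ran from 1643 to 12550 CPM in M1 eggs with a median of 4763. Activated eggs ran from 508 to 1842 with a median of 801. In 15 of 16 M1 eggs the level lay above every activated egg (log2 fold 2.55 ± 0.48, edgeR adjusted p = 0.0926). Zar1, which binds stored messenger RNAs, had 511, 1784 and 8084 CPM in M1 eggs and 159, 300 and 782 in activated eggs, with 13 of 16 M1 eggs above every activated egg (log2 fold 2.65 ± 0.43, edgeR adjusted p = 0.0606). Padi6, needed for the cytoplasmic lattices that store maternal products, had medians of 2238 and 462 CPM, and 10 of 16 M1 eggs were above every activated egg. Of 30 tested maternal effect genes 4 were at least 2-fold higher (Tle6, Khdc3, Padi6, H1f8) and none lower, with a median log2 fold of 0.48. Of 26 genes of stored RNA and translational control 4 were higher (Zar1, Lsm14b, Patl2, Tent4b) and Pabpc1 lower, with a median of 0.14. Over all genes 7.6% were higher and 10.6% lower, shares that include many genes of low level. The difference of both lists from these shares was not tested.

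**Figure D3:**
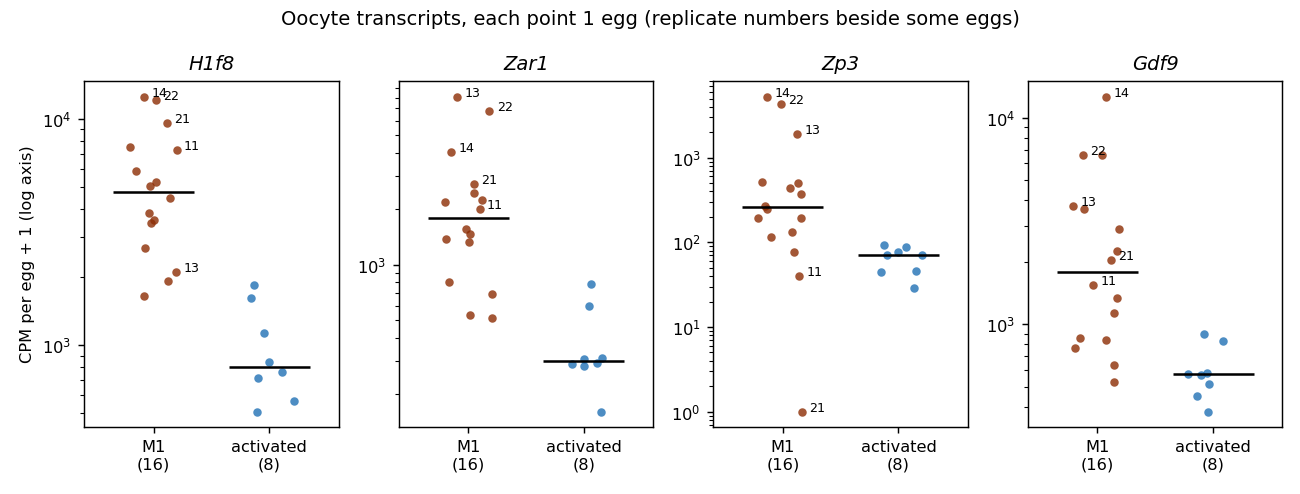
Level of 4 oocyte transcripts in each egg, in CPM plus 1 on a log axis, with replicate numbers beside 5 M1 eggs named in the text; black lines are medians. M1 eggs 13, 14 and 22 are the 3 highest for Zp3 and Zar1, and M1 medians lie above the activated medians for all 4 genes.

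Without M1 eggs 13, 14 and 22, 733 genes were at least 2-fold higher in both plate sums and 1577 lower, against 982 (7.6%) and 1364 (10.6%) with them, and no gene was called. Summed egg markers ran from 6947 to 61326 CPM in M1 and from 6458 to 10232 in activated eggs, so both groups carried them. Markers of granulosa and cumulus cells, which surround the oocyte, summed to 122 to 672 CPM in M1 eggs (median 243) and 84.6 to 136 in activated eggs (median 122). The median log2 fold of the 9 tested, of 17 such genes, was 2.00, and 0.27 without M1 eggs 11 and 21. None passed, and 3 were at least 2-fold higher (Amhr2, Inha, Serpine2), while Fshr, Amh, Foxl2, Fst, Ptx3 and Tnfaip6 had no count in either group. Blood and immune markers summed to 0 to 82.3 CPM in M1 and 5.59 to 42.7 in activated eggs, with Ptprc, Hba-a1, Hbb-bt and Cd52 at 0 in both. Markers of theca, stroma and endothelium summed to 23.005 to 292 and 44.7 to 163 CPM, with Col1a1, Col1a2 and Cdh5 at 0 in both. The part of other cells in the results was not tested.

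Cytoplasmic polyadenylation elements recruit CPEB to the ends of messenger RNAs that are translated during maturation. The last 100 bases of the 3' UTR held TTTTAT or TTTTAAT in 24.5% of the 858 genes with such a UTR that were at least 2-fold higher in M1, in 16.1% of 1174 that were lower, and in 19.4% of all 11515. Among genes of at least 4 log2 CPM the shares were 28.5% of 492 higher, 12.1% of only 91 lower (11 genes) and 21.5% of all 5789. These are shares of letters on the transcript strand, by GENCODE M21, without a test. Sites in 3 higher genes are shown with TTTTAT in capitals, which lie 53, 42 and 33 bases from the end in Bub1b, Dnajc3 and Gdf9.
Bub1b: tcttttgtaaTTTTATaacatgtactct
Dnajc3: tgggcaatatTTTTATgcccgtgtattt
Gdf9: agtgctgtggTTTTATgtgacggaagaa
The 3' UTRs of Tsc22d1, Zar1, Astl and Padi6 held neither motif in that window.

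Counts of chromosome genes stand beside shares over all genes of 7.6% at least 2-fold higher and 10.6% lower, which include many genes of low level. Of 24 tested spindle checkpoint and kinetochore genes, Bub1b passed, none passed as lower, and Ndc80 and Cenpc1 were also at least 2-fold higher. Ndc80, which links kinetochores to microtubules, had medians of 96.4 and 11.6 CPM, with 14 of 16 M1 eggs above every activated egg (log2 fold 2.68 ± 0.58, edgeR adjusted p = 0.109). Of 20 cohesin and condensin genes, Smc4 passed, Smc3 and Ncapg were at least 2-fold higher and Rec8, Stag3, Pds5a and Pds5b at least 2-fold lower. Ncapg, a condensin subunit like Smc4, ran from 157 to 686 CPM in M1 and from 5.05 to 173 in activated eggs, with 15 of 16 M1 eggs above every activated egg (log2 fold 2.55 ± 0.48, edgeR adjusted p = 0.0926).

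For cell cycle regulators the shares over all genes were likewise 7.6% at least 2-fold higher and 10.6% lower. None of 19 tested M-phase and cytostatic genes passed, and Cdc25a and Fbxo5 were at least 2-fold higher. Ccnb1, the cyclin of M-phase kinase, had medians of 1046 and 1169 CPM and a log2 fold of 0.00 ± 0.31. Pttg1, which encodes securin, had 949 and 1381 CPM (log2 fold -0.35 ± 0.43, edgeR adjusted p = 0.818). Of 20 genes of the anaphase promoting complex 2 were higher (Anapc4, Anapc11) and none lower. Among 26 spindle and cytokinesis genes Kif23 and Tacc3 were higher and Tuba1b lower, with Kif23, a motor of the central spindle, at medians of 506 and 234 CPM (log2 fold 1.11 ± 0.33, edgeR adjusted p = 0.226).

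No ERK-responsive or feedback gene passed. Of 20 tested, 6 were at least 2-fold lower (Dusp6, Fosl1, Jun, Ier2, Etv4, Etv5), against 10.6% of all genes, and none was higher (median log2 fold -1.30). Of the 22 listed genes, 4 had no count in M1 eggs, and all had counts in activated eggs. A gene at or near 0 in M1 eggs could hardly be other than lower. The count and the median thus describe the list and are not support for its direction. Dusp6 encodes the phosphatase that switches ERK off, and ERK induces it. It had 6 counts in 3 of 16 M1 eggs and 175 in 7 of 8 activated eggs. Activated eggs 1, 6 and 5 held 89.4, 86.2 and 70.7 CPM, above every M1 egg, and egg 3 held none (log2 fold -5.52 ± 1.20, edgeR adjusted p = 0.109). Spry4, an inhibitor of the same pathway and the most abundant member, had 564, 1132 and 2347 CPM in M1 and 2223, 2523 and 4017 in activated eggs. All but one M1 egg, 15 of 16, lay below every activated egg (log2 fold -0.87 ± 0.29, edgeR adjusted p = 0.282). The list's median depended on the setting, at -0.25 with eggs thinned to equal depth, -0.48 without activated egg 5, -0.69 with only the M1 and activated sums and -0.76 without the activated sum of growth number 2.

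Among 21 DNA damage and p53 genes, 4 were at least 2-fold lower (Cdkn1a, Atm, Chek2, Gadd45a) and Rad50 higher, against 10.6% and 7.6% of all genes, with none passing and a median log2 fold of -0.01. Cdkn1a encodes p21, an inhibitor of cyclin-dependent kinases. It had a median of 0.836 CPM in M1 eggs, of which 8 of 16 had reads, and 41.3 in activated eggs, of which 7 of 8 had. Activated eggs 1, 2, 3, 5 and 6 lay above every M1 egg, at 37.9 to 68.02 CPM, and egg 9 had no read (log2 fold -2.95 ± 1.21, edgeR adjusted p = 0.408). The 5 high eggs were also the 5 that were high for Zscan4d.

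Of 20 genes of lipid metabolism and the arrestin-domain family, 4 were at least 2-fold higher (Elovl1, Elovl5, Dgat2, Arrdc2) and 6 lower (Elovl2, Elovl4, Acaca, Arrdc3, Arrdc4, Cpt1a). Over all genes 7.6% were higher and 10.6% lower, and no gene of this list passed. Arrdc2 varied most: M1 eggs held 40.5, 256 and 5176 CPM and activated eggs 29.0, 51.8 and 122.9 (log2 fold 3.50 ± 0.99, edgeR adjusted p = 0.268). The log2 fold was 2.12 without M1 egg 13, and wildtype eggs had a median of 1479 CPM. Dgat2, which makes triglyceride, had 331 counts in 14 of 16 M1 eggs and 14 in 4 of 8 activated eggs. Txnip, a glucose-responsive arrestin, was listed with the stress and heat shock genes and not here. It had medians of 354 and 40.0 CPM, with 14 of 16 M1 eggs above every activated egg (log2 fold 2.38 ± 0.46, edgeR adjusted p = 0.0977).

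No gene of the housekeeping lists passed. Of 47 nuclear-encoded respiratory chain genes 9 were at least 2-fold higher, against 7.6% of all genes, and none lower, against 10.6% (median log2 fold 0.75). Of 34 proteasome genes 3 were higher and none lower (median 0.45). Ribosomal proteins had 4 higher and 4 lower of 51 (median 0.02), and of 29 decay factors 2 were higher, Dcp1a and Tob2, and 1 lower. Dcp1a, an activator of decapping, had medians of 3376 and 1717 CPM (log2 fold 1.06 ± 0.29, edgeR adjusted p = 0.184). Among 31 chromatin genes Tet3, the oxidase that acts on methylated cytosine in the early embryo, had medians of 1202 and 600 CPM, with 13 of 16 M1 eggs above every activated egg (log2 fold 1.28 ± 0.40, edgeR adjusted p = 0.238). Of 28 replication genes 4 were higher (Orc5, Mcm4, Mcm5, Gins3) and none lower.

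**Figure D4:**
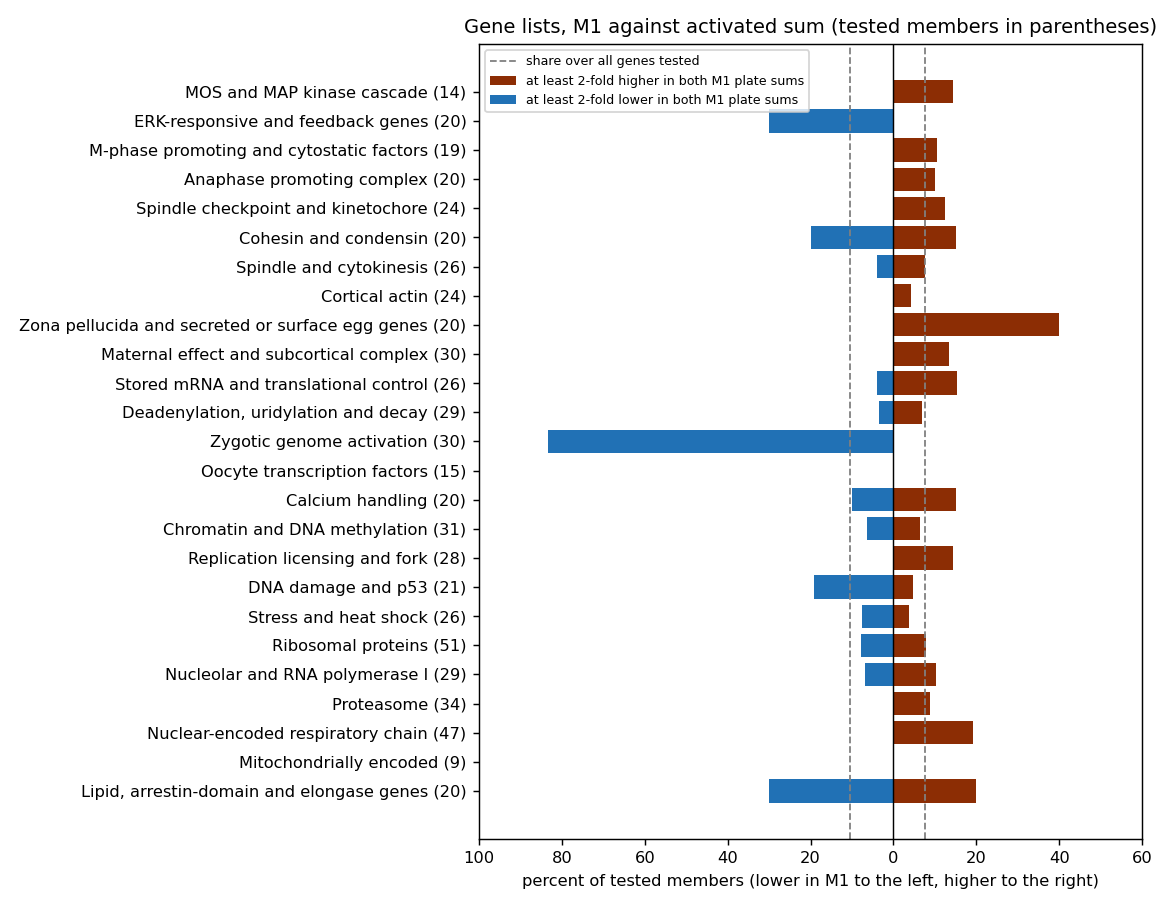
Percent of the tested members of each of 25 gene lists that were at least 2-fold higher (right) or lower (left) in both M1 plate sums than in the activated sum; dashed lines are the shares over all genes tested, 7.6% and 10.6%. Genome activation genes stand out on the left and zona and secreted genes on the right.

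The same comparison at growth number 2, with 16 M2 and 9 activated eggs, shares no egg with this one but shares its plates. None of 12915 genes passed the edgeR test of a difference between the growth numbers, and 110 (0.852%) had an unadjusted p below 0.05. Over the 6275 genes of at least 4 log2 CPM the folds of the 2 comparisons had a Pearson r of 0.794 and a Spearman rho of 0.733 across genes, which are not independent. Over all 12915 genes they were 0.546 and 0.537. Of the 982 genes at least 2-fold higher in M1, 888 (90.4%) were higher at growth number 2, and of the 1364 lower, 1102 (80.8%) were lower, against 49.8% and 48.97% of all tested genes. Both comparisons used plates 1, 2 and 4, and both came from the same fit with a shared estimate of spread. At growth number 2, 60 of the 12915 genes passed (0.465%). All 4 higher calls passed there too, with log2 folds of 3.95 ± 0.51 for Bub1b (edgeR adjusted p = 0.0112), 2.78 ± 0.47 for Smc4, 2.71 ± 0.44 for Dnajc3 and 2.85 ± 0.37 for Tsc22d1. Chit1 did as well, at -5.80 ± 0.95 (edgeR adjusted p = 0.0265), where it could again only be lower. Of the 18 and 6 genes whose eggs did not overlap, 6 and 3 did not overlap there. In all, 25 and 14 genes did not overlap at growth number 2, and their share of the genes examined was not computed. All of the 18 and 6 kept the direction of their medians. Apart from Elf2, however, the lower genes did not exceed 9.83 CPM in any M2 egg, so they could hardly be other than lower. The median log2 fold of the genome activation list was -5.99 at growth number 2.

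**Figure D5:**
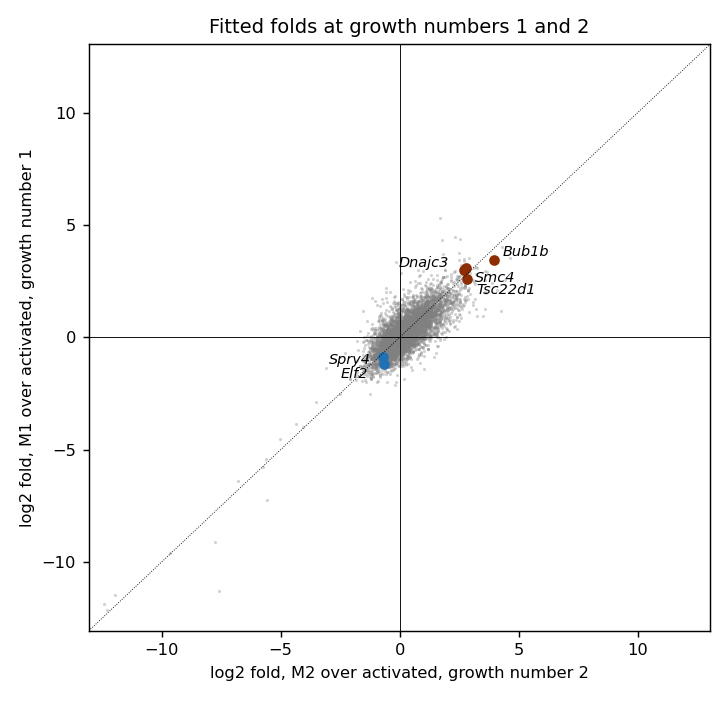
Fitted log2 fold of M1 over activated eggs at growth number 1 against that of M2 over activated eggs at growth number 2, each point 1 of 6275 genes of at least 4 log2 CPM; the dotted line marks equal folds. Bub1b, Smc4, Dnajc3 and Tsc22d1 (brown) lie high in both, and Spry4 and Elf2 (blue) lie below 0 in both.

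Wildtype eggs not labelled as activated were set beside both groups. Of the 982 higher genes, the wildtype level was between the M1 and activated levels for 641 (65.3%) and above all for 277 (28.2%). Of the 1364 lower genes it was between for 1113 (81.6%), of which 452 were ties at 0 CPM with an M1 sum. Over all tested genes it was between for 54.3% and above all for 22.4%. Since these genes were chosen for a gap between M1 and activated eggs, another group falls between them more often by that choice. The wildtype eggs were on plate 3, so their plate and group cannot be told apart.

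M1 eggs varied more among themselves than activated eggs did. With eggs thinned to 61689 counts, over 3642 genes of at least 50 CPM, the median correlation between log levels was 0.558 for 120 pairs of M1 eggs (0.274 to 0.774) and 0.669 for 28 pairs of activated eggs (0.598 to 0.796). M1 and activated eggs correlated at a median of 0.541. The SD over eggs was larger in M1 for 2884 of these genes (79.2%), with medians of 1.16 and 0.760. M1 eggs came from 2 plates and activated eggs from 1. The median was 0.521 for 10 pairs within plate 1, 0.591 for 55 pairs within plate 2 and 0.535 for 55 pairs across plates. The part of the plates in the larger spread was not tested.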

How the data were processed

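Each sample was 1 egg, profiled by Smart-seq2, which copies polyadenylated transcripts and does not mark strand. The authors deposited whole-number counts per gene, not normalised, for 21564 gene symbols, with a table of plates and growth numbers. The submitters' processing notes name STAR, an aligner, HTSeq, a counter, and GRCm38 (mm10). Their versions, the annotation and the strand option: not given in the sources used here. GENCODE M21, in which 88.9% of symbols were found, gave positions and 3' UTRs, and RefSeq (GRCm38.p6) gave promoters.

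Eggs of batch 2 with at least 10000 counts were summed per group, growth number and plate into 9 sums (2473478 to 7841484 counts). Group means were fitted in edgeR 4.0.16 (R 4.3.3) after TMM scaling and filterByExpr (minimum count 10). Robust quasi-likelihood F tests had 3 residual degrees of freedom. P-values for 12915 genes were adjusted by Benjamini-Hochberg and called below 0.05. The activated sum was assumed to vary like the mutant sums, which share plates and may share animals. CPM per egg is relative to the egg's total, and CPM of sums is TMM-scaled. A gene 2-fold apart had to be so in both M1 plate sums, on a log2 scale with a prior count of 2. Intervals cover counting error only. For simulated counts of 12201 genes in this comparison, 4 of 100 genes changed 2-fold and 45 of 100 changed 4-fold were recovered, with 6 false calls.

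The members, the 25 gene lists, 4 marker lists (706 of 719 entries found) and the rules were chosen with earlier results of these data known. The rule for named genes took, of called genes with a mean log2 CPM of 4 or more that were 2-fold apart with 1 sign in both plates, the 10 highest and the 10 lowest (predicted genes excluded), as well as 3 called members at most per list, or else its most abundant tested member, plus Mos. Other genes named were chosen after their values were seen. The alternatives tried were each sum or egg left out, other egg minimums, both batches, a plate term, only the M1 and activated sums, thinning of eggs to 61689 counts, mean log2 CPM over eggs, upper quartile or RLE scaling, DESeq2 1.42.0, voom in limma 3.58.1, no filter, mitochondrial genes left out and a 2-fold minimum. Leaving out M1 eggs 11 and 21, or 13, 14 and 22, leaving out M3 egg 8, and all alternatives for the counts of 2-fold and non-overlapping genes were added after seeing the data. One gene the rule named is not reported here.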

Additional observations from a re-analysis of the deposited data

Results flagged for a closer look

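In the 8 activated eggs, 82 values were checked for an egg that lay apart from the others by Dixon's ratio of gap to range. The 95% critical ratio is meant for normally distributed values, and CPM of sparse genes are skewed. Some genes were also checked after their values were seen, so the number flagged cannot be set against chance. Above that ratio 13 values were flagged. Of these, 8 came from activated egg 6, which was high for genome activation genes and 2 others. It held 460 CPM of Zfp352, where the others held 2.51 to 159. For Usp17la it held 368 CPM (others 0 to 53), for Prps1 359 (others 6.86 to 95.9) and for Pramel16 214 (others 3.77 to 90.9). Usp17lb stood at 201 CPM (others 0.981 to 66.4), Zscan4c at 150 (others 0 to 68.2), Tcstv3 at 98.6 (others 1.41 to 33.5) and Hmox1 at 38.5 (others 0 to 17.7). These genes were checked in the same eggs and are not independent.

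Activated egg 1 was low in total counts, at 179003 (others 711186 to 1019674), and in genes detected at 60000 counts, at 6075 (others 6601 to 7070). It was high for Spry4, at 4017 CPM (others 2223 to 2867), and for Mcm2, at 1207 (others 663 to 841). Activated egg 3 was high for Mos, at 14.2 CPM (others 0 to 5.62). The part of depth in the values of egg 1 was not tested.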

How the results depend on the processing

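The count of 5 called genes depended on the fit. The count, 0.0387% of tested genes, was 0 with RLE scaling, with a fold of at least 2, with an egg minimum of 100000 counts and without M1 eggs 13, 14 and 22, and 1 with limma voom (0.00774%). It was 333 (232 higher, 1.91%) with no filter, 365 (330 higher, 2.83%) with DESeq2, 60 higher and 61 lower (1.07%) with only the M1 and activated sums, 73 (59 higher, 0.541%) with both batches 315 (231 higher, 2.44%) with a plate term and 91 (48 higher, 0.736%) without M3 egg 8. Leaving out 1 egg gave 0 to 13 (0 to 0.102%) and leaving out 1 plate sum 0 to 490 (0 to 3.85%), the last without M1 of plate 2. Upper quartile scaling, which moved the median fold of all genes by -0.22 (log2), gave 7 (5 higher). The cause was not tested. For the difference between growth numbers, 0 in the reported fit, no filter gave 1 (0.00573%), DESeq2 1 (0.00774%) and leaving out a plate sum 0 to 2 (0 to 0.0157%). Genes at least 2-fold lower in both plate sums, 1364 as reported, numbered 351 with thinned eggs, where fewer genes were tested (7585). Those at least 2-fold higher, 982 as reported, numbered 664 there. Genes not overlapping and higher, 18 as reported, numbered 8 with thinned eggs, 0 with no egg minimum, which brings in 2 near-empty eggs, 38 without M1 eggs 11 and 21, and 18 to 25 with 1 egg left out. Those lower, 6 as reported, numbered 0 with thinned eggs, 1 at a minimum of 50 CPM and 3 to 10 with 1 egg left out. As mean log2 CPM over eggs, 981 of 982 higher and 1232 of 1364 lower genes had the same sign. No paired analysis was possible because replicate numbers only name eggs and the sums carry none.

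Folds of opposite sign were seen for 13 genes near 0, none called. Ccnb1 was at -0.02 with RLE and DESeq2, -0.24 with upper quartile scaling, -0.03 with no filter, -0.29 with thinned eggs, -0.05 with only the 2 groups and with both batches, -0.01 with the higher egg minimum, -0.16 without M1 eggs 11 and 21, and -0.18 as the mean over eggs. With upper quartile scaling Wasl was at -0.10, Bmp15 -0.01, Eif4enif1 -0.07, Foxo3 -0.05, Mdm4 -0.12, Npm1 -0.20, Laptm5 -0.16 and Pecam1 -0.01. Thinned eggs gave -0.11 for Wasl, -0.02 for Eif4enif1, -0.08 for Npm1, -0.07 for mt-Co1 and -0.45 for Laptm5. Without M1 eggs 11 and 21, Bmp15 was at -0.08, Klf17 -0.15, Dnajb1 -0.09, Npm1 -0.21, mt-Co1 -1.19 and Laptm5 -0.39. As means over eggs Wasl was at -0.21, Bmp15 -0.02, Klf17 -0.06, Mdm4 -0.07, Npm1 -0.03 and mt-Co1 -1.02. Other such values were -0.19 for mt-Co1 with limma voom, -0.03 for Npm1 with only the 2 groups, and -0.01 for Npm1 with a plate term. With 1 egg or 1 plate sum left out in turn, the values ran from -0.16 to 0.13 for Ccnb1, -0.23 to 0.42 for Wasl, -0.02 to 0.35 for Eif4enif1, -0.35 to 0.33 for Npm1, -0.22 to 0.46 for Laptm5, -0.58 to 0.70 for Pecam1, -1.05 to 1.13 for mt-Co1, -0.48 to 0.09 for Atp5f1b, -0.03 to 0.35 for Klf17 and -0.06 to 0.46 for Dnajb1.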
